A study of Mus musculus with 47 samples.

Results

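Alcam and 9 further members of the immunoglobulin superfamily of neuronal cell adhesion molecules were followed in single NPY-positive interneurons of the mouse auditory cortex (AC) and hippocampus. The 10 genes were Alcam, the NCAM family (Ncam1, Ncam2), the L1 family (L1cam, Chl1, Nrcam, Nfasc) and the CADM family (Cadm1, Cadm2, Cadm3), which are 10 of the 22800 genes in the count table. Alcam was chosen from the measured values themselves, for its absence from the AC cells, so its AC and CA3 values are a description and support nothing further. The other 9 were taken as relatives of Alcam by name. All 10 had a read in at least 1 cell.

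The cells came from 8 mice of the NPY-hrGFP strain, aged 3 to 8 weeks, males and females, in which a fluorescent reporter marks Npy-expressing cells, so that cells of all 3 regions carried the same reporter (the labels write NPY-EGFP). No other treatment or allele was named. Cytosol was drawn into a patch pipette in acute slices, from layers 1 and 2 of AC in coronal slices and from the stratum lacunosum moleculare of CA3 in horizontal slices, and polyadenylated RNA was amplified and sequenced cell by cell. The main set was 26 cells, 10 of AC (N3X, N4, N5, N7, N8, N41 to N44 and N46), 13 of CA3 (N26 to N34 and N37 to N40) and 3 of CA1 (N1, N2X and N6). These AC and CA3 cells are the columns that earlier work on this table had matched to the heat maps of the publication. The publication counted more CA3 cells after its quality control than the 13 used here. The remaining columns are described at the end.

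Neither labels nor methods tie a cell to a mouse, so each region was treated as 1 sample. No test, standard error or p-value was therefore computed, and the SD over cells is a description of how cells differed. Levels are log2(normalized count + 1), and a member is called higher in a region where the mean level differs by at least 1. CPM stands for reads per 1000000 reads, of a cell or of all cells of a region summed. Intervals at the 95% level are exact (Poisson for reads, Clopper-Pearson for shares). Those for summed reads cover counting error only, not the spread over cells. Those for shares take cells as independent, which is not known here, and neither kind covers differences between mice. Totals ran from 1715012 to 6265431 reads per cell in AC and from 2229519 to 7949918 in CA3. Of the CA1 cells, N1 (601781 reads) and N6 (1230347) were shallower, while N2X (3202430) lay within both ranges.

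All 26 cells held reads of Gad1 and Npy, genes of GABA synthesis and of neuropeptide Y. Glial markers were unevenly spread over the regions. Astrocyte markers had reads in 7 of 10 AC cells (5 of 6 markers, with Aqp4 at 0; summed per cell 0 to 1237 CPM), in 3 of 3 CA1 cells (3 of 6 markers; 82.9 to 882 CPM) and in 1 of 13 CA3 cells (1 of 6 markers, up to 0.421 CPM). Microglial markers reached 4330 CPM in the AC cell N42 and 1864 CPM in the CA3 cell N27, and oligodendrocyte markers 1043 CPM in the CA3 cell N39. Endothelial markers stayed at or below 33.7 CPM, with Cldn5 and Flt1 at 0 in all 3 regions, and markers of pyramidal cells at or below 510 CPM. The part of glial RNA in the member values was not tested, but the counts of members called below were repeated without the 3 AC and 2 CA3 cells in which a glial list reached 1000 CPM.

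Immunoglobulin cell adhesion molecules sit in the plasma membrane with several extracellular immunoglobulin domains and bind partners on neighbouring cells, either the same molecule or a relative. Alcam (CD166) binds itself and CD6 and is known from axon guidance and fasciculation. NCAM and L1 proteins steer axon growth and anchor membranes to the ankyrin and spectrin skeleton, and CADM proteins (SynCAMs) bridge the synaptic cleft.

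**Figure D1:**
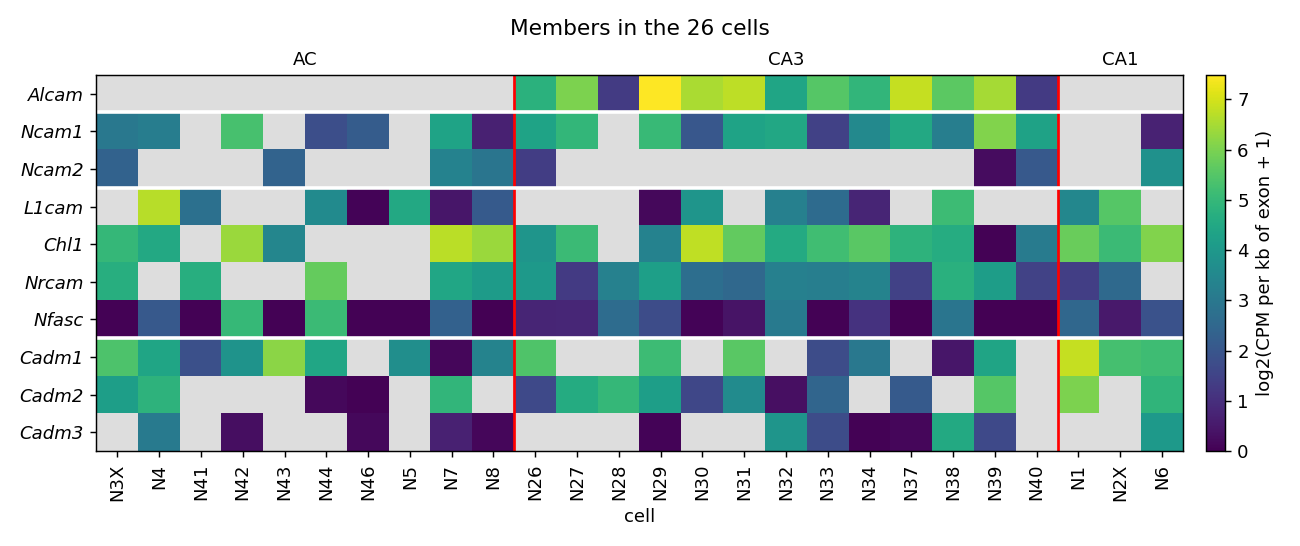
Each column is 1 cell and each line of squares 1 member. Colour gives log2(CPM per kb of exon + 1), grey marks cells with no read, and red lines separate the 10 AC, 13 CA3 and 3 CA1 cells. Alcam is filled in 13 of 13 CA3 cells and grey in the 10 AC and 3 CA1 cells.

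Alcam (chromosome 16, positions 52248996 to 52454074, minus strand, GRCm38) was read in 13 of 13 CA3 cells, in 0 of 10 AC cells and in 0 of 3 CA1 cells. In CA3 the lowest count was 25 reads in N28, the median 1231 and the highest 4971 in N39. N40 held 44 reads, and the other CA3 cells held at least 424. So the CA3 cells differed greatly in how much Alcam they held, yet each lay above every AC and CA1 cell of the main set. Summed over cells, Alcam stood at 460 CPM in CA3 (454 to 466.45). With no read in AC it was at least 5226-fold lower there, set against a limit of 3 reads over the region (0.0881 CPM). In CA1 it was at least 773-fold lower, against a limit of 0.596 CPM. The mean level in CA3 was 9.66 ± 2.19 (SD, n = 13 cells). The fold for AC holds for the main set only, since the 9 unlisted AC cells held 464 Alcam reads (22.9 CPM). Of these reads, 360 were in N45, which also held reads of Gad1 and Npy.

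N1 and N6 of CA1 being shallow, the count of cells was repeated at equal depth. With each cell thinned to 601781 reads, the total of N1, Alcam still had a read in 13 of 13 CA3 cells. The AC and CA1 counts, already 0, could only stay 0, so thinning cannot say whether Alcam was missed there. Within CA3 the Alcam level had a Spearman coefficient of 0.16 with total reads (Pearson 0.16) and of 0.04 with the number of detected genes (Pearson 0.41), over 13 cells whose reads stem from the same libraries. Between AC and CA3, 4 of 5964 genes had cells that did not overlap between the regions (0.0671%). They were Alcam, Kit, Ndufa5 and Sv2c, named here after their values were seen, and Alcam is among them by its choice. Between CA1 and CA3 the share of genes without overlap was 1.19%. Alcam was the only gene of the table with a read in every CA3 cell of the set and in no AC cell of it, and the same held with CA1 added.

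**Figure D2:**
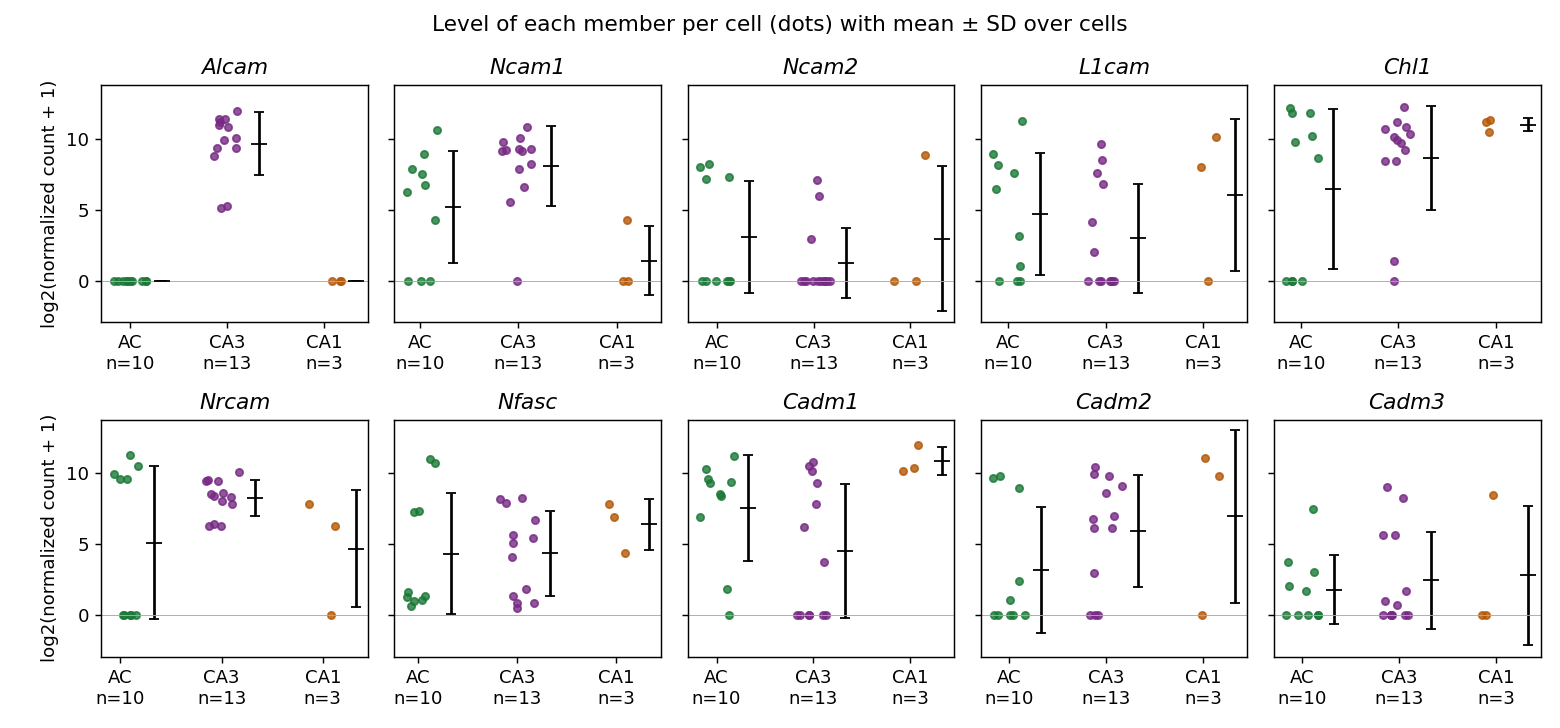
Each dot is 1 cell, on the scale log2(normalized count + 1), by region (10 AC, 13 CA3 and 3 CA1 cells), with the mean ± SD over cells beside it. Alcam separates CA3 from the rest, while the other members show cells at or near 0 beside cells at high levels in at least 1 region.

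The other 9 members did not share this pattern. Between AC and CA3, 3 of 9 were called higher in AC (Cadm1, Ncam2 and L1cam), where 15.4% of the 5964 genes compared were (those read in 10 or more cells). Another 4 of 9 were called higher in CA3 (Nrcam, Ncam1, Cadm2 and Chl1), where 48.1% of genes were. Nfasc and Cadm3 were not called. The median difference of these 9 members was -0.66, beside -0.91 over all genes. For none of the 9 was the difference larger than the SD over cells in both regions. Of the 9, 8 passed the filter of 10 cells with a read, the exception being Ncam2. The counts were 3 higher in AC and 6 higher in CA3 without the cells rich in glial markers, an alternative added after seeing the data. On summed CPM they were 2 (Ncam2 and Nfasc) and 3 (Ncam1, Cadm2 and Cadm3), so that 3 of the 7 called members were called under both measures. With all labelled cells they were 1 and 5, and Cadm1 then differed by 0.81, L1cam by 0.49 and Ncam2 by -0.40.

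**Figure D3:**
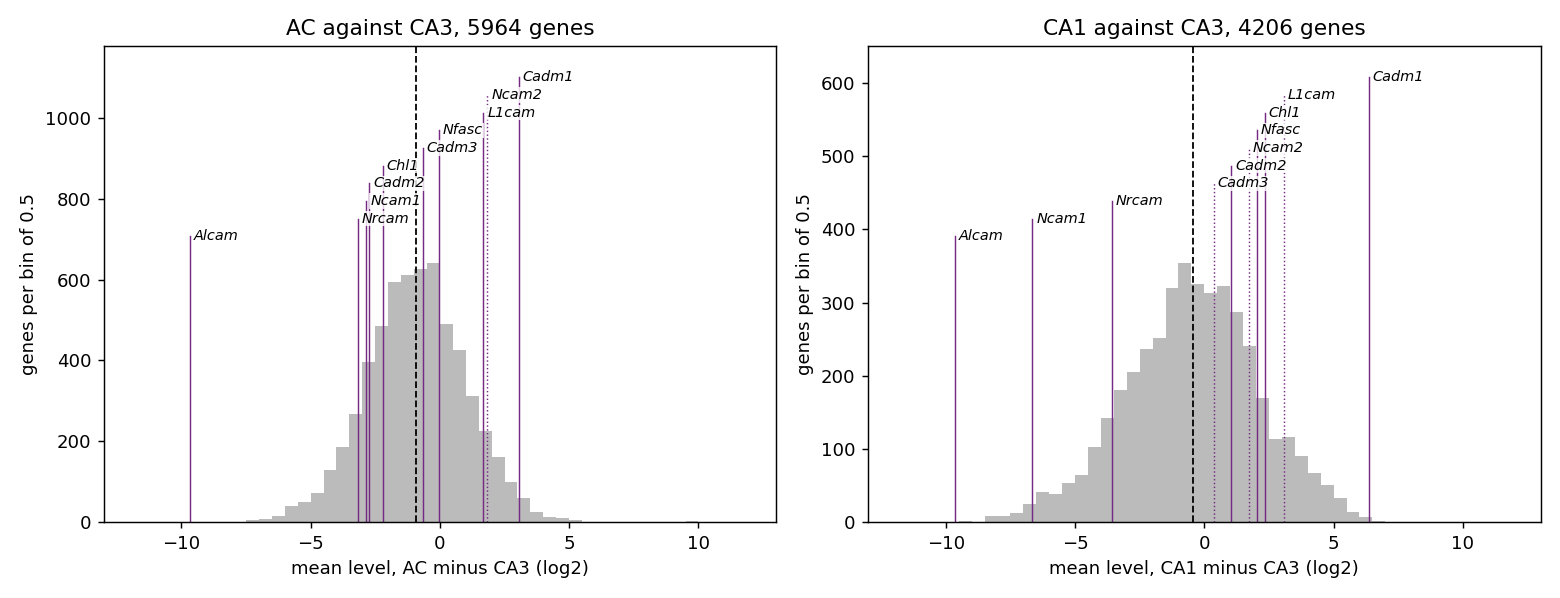
Grey bars count genes per difference in mean level (log2, bins of 0.5) for AC minus CA3 (5964 genes) and CA1 minus CA3 (4206 genes). The dashed line is the median of all genes (-0.91 and -0.44), purple lines are the members, and dotted lines mark members with a read in too few cells for the gene filter. Alcam lies at -9.66 in both panels and Cadm1 at 3.06 and 6.36.

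Ncam1 (chromosome 9, 49502136 to 49798925), the neural cell adhesion molecule and carrier of polysialic acid, had reads in 12 of 13 CA3 cells, from 0 in N28 over a median of 576 to 4557 in N39. In AC it had reads in 7 of 10 cells, from 0 over a median of 84.5 to 1283 in N42. CA1 held 7 reads in N6 and none in N1 and N2X. The CA3 cells were thus mostly high, the AC cells ranged from none to CA3-like values, and CA1 was close to empty. Mean levels were 8.06 ± 2.81 in CA3 (SD, n = 13 cells), 5.22 ± 3.95 in AC (n = 10) and 1.41 ± 2.44 in CA1 (n = 3). The difference was -2.85 for AC minus CA3 and -6.65 for CA1 minus CA3, of which the latter exceeded the SD in both regions. Summed, Ncam1 stood at 204 CPM in CA3 (200.5 to 209), 65.4 CPM in AC (62.7 to 68.1) and 1.39 CPM in CA1 (0.559 to 2.86). The library of N39 supplied 45.6% of the Ncam1 reads of CA3, which stood at 133 CPM without it, and AC stood at 31.2 CPM without N42. An antisense gene, Gm11149, covers 4.81% of the Ncam1 exon bases, and the strand setting used for these counts is not clear from the methods.

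Ncam2 (chromosome 16, 81200697 to 81626828), its relative known from olfactory axons, was sparse in every region. It had reads in 4 of 10 AC cells (149 reads in N43, 188 in N3X, 231 in N7 and 459 in N8), in 3 of 13 CA3 cells (17 in N39, 40 in N26 and 160 in N40) and in 1 of 3 CA1 cells (179 in N6). Where it was present in AC, it held at least 149 reads, and the CA3 counts stayed below the AC maximum. Mean levels were 3.07 ± 3.97 for AC and 1.23 ± 2.50 for CA3, which differed by 1.83. Without the cells rich in glial markers this was 3.19, with all labelled cells -0.40 and with the filter of the publication -0.21.

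Within the NCAM family, levels per kb of exon put Ncam1 at 85.2 to 100% in each of the 12 CA3 cells with a read of the family. In AC the 8 such cells ran from 0 to 100%, with Ncam2 above 50% in 2 of them (N43 and N8). The single CA1 cell with the family, N6, held 4.87% Ncam1.

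L1cam (chromosome X, 73853778 to 73896105), the founding member of the L1 family, was read in 7 of 10 AC cells with a median of 81 and a maximum of 1279 reads in N4. Among the 13 CA3 cells, 6 held reads, with a median of 0 and a maximum of 912 in N38. CA1 showed 44 reads in N1, 1049 in N2X and none in N6. Cells with and without L1cam thus stood side by side in all 3 regions. The AC minus CA3 difference was 1.68 and fell to 0.95 without N4, which supplied 58.3% of the AC reads. On summed reads the AC level was 2.00 times that of CA3 (64.4 and 32.2 CPM), but 0.878 times without N4 and 4.40 times without N38, which supplied 57.9% of the CA3 reads. The gene Arhgap4 overlaps 1.36% of its exon bases.

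Chl1 (chromosome 6, 103510586 to 103750211), the close homologue of L1, reached the highest count in a single cell of the 10 members. It had reads in 6 of 10 AC cells, from 0 over a median of 416 to 6249 in N8, in 12 of 13 CA3 cells, from 0 in N28 over a median of 1033 to 3711 in N30, and in all 3 CA1 cells (395 in N1, 1002 in N6 and 1317 in N2X). AC split into 4 cells without a read and 6 cells with levels of 8.61 to 12.2, where CA3 reached 12.2 as well. Accordingly the mean of log levels and the sum of reads pointed in opposite directions. The mean level was lower in AC by 2.21 (6.43 ± 5.64 in AC, 8.65 ± 3.70 in CA3), whereas summed CPM was 1.37-fold higher in AC (450 and 329 CPM) and nearly equal without N8 (327 and 329 CPM). In CA1 the 3 cells were alike, at 10.99 ± 0.457 (SD, n = 3 cells).

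Nrcam (chromosome 12, 44328885 to 44601964), which assembles at nodes of Ranvier and at axon initial segments, was apart from Alcam and Nfasc the only member with a read in all 13 CA3 cells. Its CA3 counts ran from 48 in N27 over a median of 360 to 1820 in N39. It was missing from 5 of 10 AC cells, and the other 5 held 625 in N7, 1351 in N3X, 1355 in N8, 1459 in N41 and 2290 in N44. In CA1 it had 13 reads in N1, 209 in N2X and none in N6. The 5 AC cells with Nrcam thus had levels of 9.58 to 11.3, where the CA3 cells ran from 6.29 to 10.1. The mean level was lower by 3.17 in AC (5.10 ± 5.40 and 8.27 ± 1.27), while summed CPM was 1.52-fold higher there (208 and 137 CPM). Without the cells rich in glial markers the difference in mean level was -1.05, and the AC cells left out (N4, N42 and N46) had no Nrcam read. On the scale log2(normalized count + 1), Nrcam in CA3 had the smallest SD over cells of the 10 members in that region. By log2(CPM per kb + 1) the sparse Ncam2 had a smaller one (0.663 beside 1.13 for Nrcam).

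Nfasc (chromosome 1, 132564690 to 132741797), neurofascin of the initial segment and the node, had a read in every one of the 26 cells, but in 11 of them only 1 to 3 reads. At least 10 reads were found in 4 of 10 AC cells, 8 of 13 CA3 cells and 3 of 3 CA1 cells (19 in N2X, 40 in N1 and 47 in N6). AC ran from 1 over a median of 2 to 1706 reads in N42, CA3 from 1 over a median of 22 to 335 in N38. Thinned to equal depth, 4 AC and 8 CA3 cells kept a read. The mean levels were nearly equal (4.34 ± 4.26 in AC, 4.37 ± 2.99 in CA3), although 2 AC cells, N42 and N44 with 1540 reads, put the summed level of AC 4.56-fold above CA3 (102 and 22.3 CPM). Without N42 it was 2.61-fold above, and without N44 2.805-fold. Without the cells rich in glial markers, which include N42, the difference in mean level was -1.19, with all labelled cells -1.15 and with the filter of the publication -1.58.

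As shares of the L1 family per kb, Chl1 held a median of 72.7% in CA3 (0 to 94.0%, 13 cells) and Nrcam 18.3% (4.02 to 99.7%). In AC the leading member changed from cell to cell. Chl1 exceeded 50% in 5 cells, L1cam in 3 and Nrcam in 2, and the share of N46 among them rests on 2 reads.

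**Figure D4:**
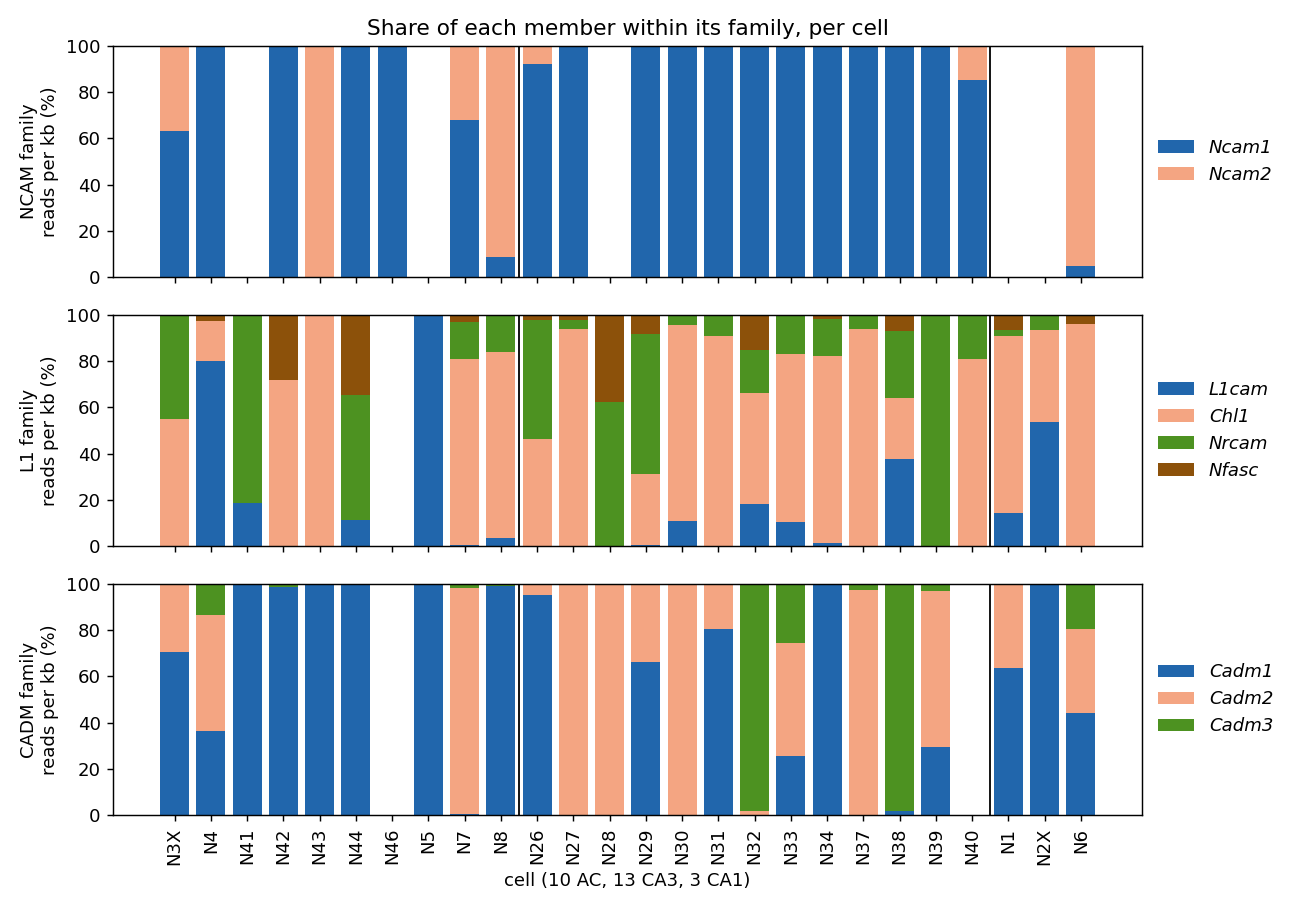
Bars give, for each cell, the percent of length-scaled reads (reads per kb of exon) that each member held within its family, with cells of under 10 family reads left blank. Black lines separate AC, CA3 and CA1. Ncam1 fills 85.2% or more of each CA3 bar, and Cadm1 fills most AC bars of the CADM family.

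Cadm1 (chromosome 9, 47530173 to 47857637), SynCAM 1, had the largest difference in mean level toward AC, although on summed CPM Ncam2 (6.79-fold, and 23.6-fold without N40) and Nfasc (4.56-fold) lay further toward AC. It had reads in 9 of 10 AC cells, from 0 in N46 over a median of 449.5 to 2348 in N43, and in 7 of 13 CA3 cells, from 0 over a median of 14 to 1747 in N31. The 3 CA1 cells held 451 (N6), 701 (N1) and 1275 reads (N2X). CA3 was divided, since 6 cells had no read and 5 held at least 368. Mean levels were 10.9 ± 0.998 in CA1 (SD, n = 3 cells), 7.57 ± 3.72 in AC (n = 10) and 4.51 ± 4.72 in CA3 (n = 13). AC minus CA3 was 3.06, which lay above 98.1% of the genes compared but within the SD over cells. CA1 minus CA3 was 6.36, beyond the SD in both regions, while summed CPM was 3.94-fold higher in CA1 (482 and 122 CPM). It lay above 99.9% of the genes compared, but these needed reads in 10 cells, of which CA1 has only 3. Genes read in CA1 and in few CA3 cells could not enter, and Cadm1 passed with exactly 10 cells. The rank thus rests in part on the filter. In summed reads Cadm1 was 1.60-fold higher in AC than in CA3 (195 and 122 CPM), and with all labelled cells the AC minus CA3 difference was 0.81.

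Cadm2 (chromosome 16, 66655421 to 67620908), SynCAM 2, ran the other way between AC and CA3. It had reads in 10 of 13 CA3 cells (0 to 3506 reads, median 140, highest in N39) and in 5 of 10 AC cells (0 to 685, median 0.5, highest in N3X). Only 3 AC cells, N3X, N4 and N7, held over 4 reads. The CA1 cells N1 and N6 held 374 and 349 reads and N2X none. The AC minus CA3 difference was -2.73 (3.20 ± 4.42 and 5.93 ± 3.93). On summed CPM it was called too (53.2 CPM in AC and 126 in CA3), but no longer without N39 (64.6 CPM in CA3). The antisense gene 1700010K23Rik covers 2.61% of its exon bases.

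Cadm3 (chromosome 1, 173333258 to 173367695), SynCAM 3, was low in most cells. At least 10 reads were present in 2 of 10 AC cells (93 in N4 and 10 in N7), in 4 of 13 CA3 cells (66 in N33, 123 in N39, 314 in N32 and 590 in N38) and in 1 of 3 CA1 cells (138 in N6). Its AC minus CA3 difference of -0.66 became -1.29 without N4, -1.62 without the cells rich in glial markers and 1.26 with all labelled cells. The gene Ackr1 shares 4.98% of the exon bases on the same strand.

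Per kb, Cadm1 made up a median of 98.7% of the CADM family in AC (0 to 100%, 10 cells, of which N46 had 4 family reads) and 13.7% in CA3 (0 to 99.6%, 12 cells). In CA3 the family was led by Cadm2 in 5 cells above 50%, by Cadm1 in 4 and by Cadm3 in 2. In AC Cadm1 was above 50% in 7 of 10 cells.

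CA1 was compared with CA3 over the 9 members other than Alcam, with 3 cells in CA1. Members called higher in CA1 were 6 of 9 (28.4% of 4206 genes were), and members called higher in CA3 were 2 of 9, Ncam1 and Nrcam (40.4% of genes were). Alcam, whose high CA3 values its choice used, is only described (-9.66). All genes had a median of -0.44 in this comparison. Of the 9 members, 6 passed the gene filter here, and over genes with any read the shares were 25.9% and 33.2%. On summed CPM the counts were 3 and 3 with Alcam included. Ncam1 and Cadm1 differed by more than the SD in both regions. Of the 6 called higher in CA1, Cadm1, Chl1 and Nfasc had reads in all 3 CA1 cells. Chl1 differed by 2.34, and by 0.71 on summed CPM. Several differences moved with single cells, and without N6 the counts, with Alcam included, were 4 higher in CA1 and 5 higher in CA3. Cadm2 differed by 1.04, but by -1.03 without N1 and -0.38 without N6, and the call was also lost without N32 (0.79) and without N34, N38 or N40 (0.54 each), while without N2X it was 4.52. With DESeq2 poscounts factors it was 0.77 and on summed CPM 0.19. Ncam2 differed by 1.71, by -1.23 without N6 and by 3.19 without N1 or N2X. L1cam differed by 3.08, by 1.03 without N2X and by 6.10 without N6. Nfasc differed by 2.03, by 1.30 without N1 and by -0.08 on summed CPM. Nrcam differed by -3.58 and by -1.23 without N6. Cadm3 differed by 0.36, by 1.77 without N1 or N2X and by -2.46 without N6.

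Against AC, 6 of the 10 members were called higher in CA1 (40.3% of 1760 genes were) and 1 of 10, Ncam1, higher in AC (21.4% of genes were), with a median of 0.49 over all genes. Of the 10 members, 2 passed the gene filter here, and over genes with any read the shares were 35.4% and 25.4%. On summed CPM the counts were 4 and 3. These cells also enter the comparisons above. Chl1 was higher in CA1 by 4.55, though summed CPM differed only 1.20-fold, and less without N6 (450.03 and 450.29 CPM), and Cadm1 by 3.29, while Ncam1 was lower by 3.80. No difference here exceeded the SD in both regions. The remaining calls rested on few cells. Members higher in AC numbered 2 without N1 or N2X and 3 without N6. L1cam differed by 1.39, by -0.65 without N2X, by 0.41 without N1, by 0.88 without N3X, N42 or N43, by 0.99 without N46, by 2.13 without N4 and by 4.42 without N6. Cadm3 differed by 1.01, by -1.81 without N6, by 0.81 without N3X, N41, N43, N44 or N5, by 1.64 without N4, by 2.42 without N1 or N2X and by 0.91 with poscounts factors. Cadm2 differed by 3.77, by 1.70 without N1, by 2.35 without N6 and by 7.25 without N2X. Nfasc differed by 2.07, by 1.33 without N1, by 0.88 with a pseudocount of 10 and by -2.22 on summed CPM. Ncam2 and Nrcam, at -0.12 and -0.41, were not called, and neither kept its direction in every smaller set. Ncam2 was at 1.35 without N1 or N2X and -3.07 without N6, and Nrcam at -1.20 without N1, -1.97 without N2X and 1.94 without N6. Without the cells rich in glial markers, these 2 were at -1.43 and -2.60, so that 3 members were called higher in AC.

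**Figure D5:**
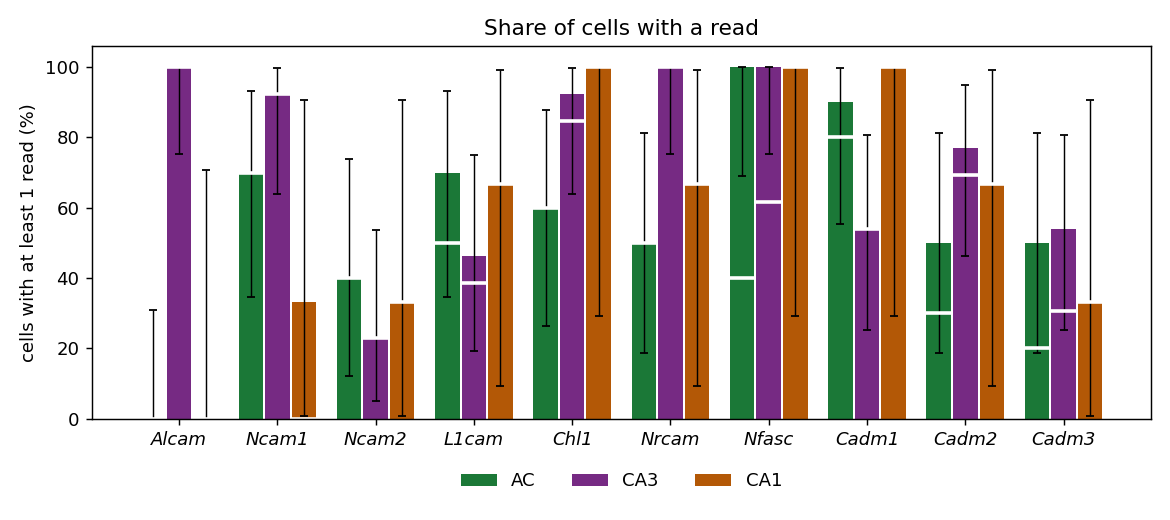
Bars give the percent of cells with at least 1 read of each member in AC (10 cells), CA3 (13) and CA1 (3). The white line gives the percent with at least 10 reads. Error bars are the exact 95% Clopper-Pearson interval, which takes cells as independent and does not cover differences between mice. For Alcam they only describe the values that chose it. Nfasc drops most between the limits, from 10 to 4 AC cells and from 13 to 8 CA3 cells.

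Seen cell by cell, and leaving out Alcam, which its choice puts in CA3, CA3 cells held reads of 3 to 8 of the other 9 members (median 7) and AC cells of 3 to 9 (median 5.5). Over all genes, CA3 cells also had more detected genes, with a median of 5704 beside 5007.5 in AC. In levels per kb, Alcam was the highest member in 7 of 13 CA3 cells, Chl1 in 3, and Ncam1, Cadm1 and Cadm2 in 1 each. In AC the highest was Chl1 in 3 cells, Cadm1, L1cam and Nrcam in 2 each and Ncam1 in 1. The AC cell N46 stood out with 105 reads of all members together in 3247495 reads, of which 99 were Ncam1. Its members summed to 3.74 CPM per kb, where the other AC cells had 33.3 to 189.9.

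Ordered by summed CPM per kb, CA3 ran from Alcam (64.7) over Chl1 (26.8), Ncam1 (23.6), Cadm2 (12.8), Cadm1 (11.7) and Nrcam (10.2) down to Ncam2 (0.392). The ranks from Chl1 to Nrcam moved with single cells, and without N39 Cadm2 fell to 6.59, below Cadm1 (10.1) and Nrcam (8.88). AC ran from Chl1 (36.6) over Cadm1 (18.7) and Nrcam (15.6) to Alcam at 0, and CA1 from Cadm1 (46.2) over Chl1 (43.9) and L1cam (29.5) to Alcam at 0. Ranks moved with single cells there too. In AC Nrcam (17.1) passed Cadm1 (13.3) without N43. In CA1 without N2X, L1cam fell to 3.27, Cadm2 rose from 14.6 to 40.2 and Chl1 (62.0) passed Cadm1 (60.2). By mean log2(CPM per kb + 1) the order was partly another, with Nrcam (3.06) above Cadm2 (2.39) in CA3, Cadm1 (3.33) above Chl1 (3.24) in AC and Cadm2 (3.64) above L1cam (2.99) in CA1. Neighbours in the orders by sum differed in mean log2(CPM per kb + 1) by less than the larger SD over cells in 9 of 9 pairs in AC. The same held in 8 of 9 pairs in CA3, the exception being Nrcam and L1cam, and in 8 of 9 in CA1, the exception being Nfasc and Ncam1. Across regions, none of the 9 members other than Alcam had mean levels in neighbouring regions of the order that differed by more than both SDs. For Alcam those of CA3 and AC did, which its choice for absence from AC brings about.

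The genes most like Alcam in presence and absence over the 26 cells were sought over the whole table. Lhx6, a transcription factor of interneurons born in the medial ganglionic eminence, matched in 25 of 26 cells, the collagen gene Col25a1 in 24, and 8 genes in 23. Of these 8, Clec2l, Chga (chromogranin A) and Igfbp4 are named, as those whose levels had the highest Spearman coefficients with Alcam over the 13 CA3 cells. No gene matched in 26. Lhx6 had reads in 12 of 13 CA3 cells and in no AC or CA1 cell. The exception was N29, with 4022 Alcam reads and 0 Lhx6 reads, and N27 and N38 held 2 Lhx6 reads each beside 1130 and 1231 of Alcam. In turn N28 and N40, the cells with the least Alcam, had 824 and 1850 Lhx6 reads. Within CA3 the levels of Alcam and Lhx6 had a Spearman coefficient of -0.46 over 13 cells. Among the members, Alcam was closest to Ncam1 there (Pearson 0.56, Spearman 0.52, 13 cells), a description of cells that share depth and preparation.

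Further genes of these pathways were counted as whole lists, to be read against the 15.4% of genes called higher in AC and 48.1% in CA3, or 13.6% and 32.8% over genes with any read. The list medians cover every listed gene, read or not. They cannot be set against the -0.91 of all genes, which covers only genes passing the filter of 10 cells. That filter was passed by 4 of 5 IgLON genes, 2 of 6 in the nectin list, 10 of 21 other genes and 12 of 22 binding partners. Of the 5 IgLON genes, GPI-anchored neuronal adhesion molecules, 0 were called higher in AC and 2 in CA3 (median -0.42). These were Opcml, with reads in 12 of 13 CA3 and 5 of 10 AC cells (187 and 25.9 CPM, difference -5.44), and Lsamp, with reads in 13 of 13 and 6 of 10 (178 and 36.2 CPM, -4.84). Both exceeded the SD over cells in either region, as did the differences of Jam2 and Sptbn4 below, which were higher in AC. Of the 6 genes in the list of nectins, Pvr and Cadm4, 1 was called higher in AC, Cadm4 itself (1.25), and 1 in CA3 (median 0.39), which was Pvrl1 (-1.24), named after its values were seen. Of 21 other immunoglobulin adhesion genes, 5 were called higher in AC and 3 in CA3 (median -0.17). Jam2 differed by 5.06 (8 of 10 AC cells, 4 of 13 CA3 cells; 169 and 20.7 CPM), Dscaml1 by 3.48, Mdga2 by 1.49 and Thy1 by -1.22. Of 22 binding partners of the members, such as ankyrins, spectrins and ERM proteins, 4 were called higher in AC and 8 in CA3 (median 0). The spectrin Sptbn4 differed by 3.49 (29.8 and 9.29 CPM), the ERM protein Rdx by -2.52, Epb4.1l3, a protein 4.1 that binds CADMs, by -2.27, and the growth-cone protein Gap43 by -1.83.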

How the data were processed

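The deposited data are 1 table of raw read counts per gene, made by the authors, for 47 columns and 22800 gene symbols, without normalization. According to the methods and the processing notes, reads were trimmed with Trimmomatic and aligned with STAR to GRCm38. The methods name HTSeq for counting and the notes featureCounts, and the methods list options of sense, antisense or both without saying which was used. Libraries were made with Nextera XT.

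Members and lists were chosen with earlier results of these data known. Counts were scaled by scran 1.30.0 (computeSumFactors, pools of 10 and 20 cells) over the 26 cells, with a pseudocount of 1. Background shares use genes read in 10 or more of the compared cells. Lengths per kb are the union of exons in GENCODE vM21. Alternatives were TMM factors (edgeR 4.0.16), poscounts factors (DESeq2 1.42.0), library size, scran factors from AC and CA3 alone, a pseudocount of 10, log2 ratios of summed CPM + 1, all labelled cells, the filter of the publication (3.5 MAD), thinning to 601781 reads, each cell left out, a limit of 10 reads, and no cells rich in glial markers. Each cell was also left out of the summed reads in turn. Both this and leaving out the cells rich in glial markers were chosen after seeing the data. The table holds N4 a second time as N4X, which was left out or averaged with it. Named beyond the members were up to 4 genes per list (IgLON, nectins and Cadm4, other immunoglobulin adhesion, binding partners) by size of the AC to CA3 difference among genes read in 10 or more cells, and 5 genes most like Alcam in presence over the 26 cells, ties ordered by Spearman coefficient in CA3. The level script was tested on simulated data. No sequence is printed.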

Additional observations from a re-analysis of the deposited data

Results flagged for a closer look

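In the 10 AC cells, the Cadm3 level of N4 (7.48, 93 reads) lay far above the other cells, more than the limit for groups of this size, a limit that chance passes now and then. N4 also held the highest astrocyte marker sum of these cells, 1237 CPM, and the part of that in Cadm3 was not tested. The second column of the same cell, N4X, held 120 reads of Cadm3.

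Alcam was not at 0 in every column labelled AC. N10 held 103 reads and N45 held 360. N10 had no read of Gad1, Gad2 or Npy and 15303 CPM of astrocyte markers. N45 had 10339 reads of Gad1, 1477 of Npy and reads of 10 members, among them 1072 of Ncam1 and 1319 of L1cam. N52 held 1 read in a total of 40934, and the other unlisted AC columns none.

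Members were also read in columns outside the 26 cells, of which the unlisted AC and CA3 cells enter only the alternatives with all labelled cells or the filter of the publication. Over 3 reads in sum were present for 10 members in the 9 unlisted AC cells, for 9 in the 8 unlisted CA3 cells, for 4 in the 2 dentate gyrus cells and for 4 in the NPY-negative CA3 cell. Of the unlisted CA3 cells, N36 had 494 reads of Alcam beside 40427 of Gad1, and it lacked the CADM family, with 3222 reads of L1cam and 4215 of Nrcam. The other 7 unlisted CA3 cells had no read of Gad1, Gad2 or Npy. Alcam reads there were 95 in N14, 33 in N23 and at most 3 in the rest. The NPY-negative cell held 188 reads of Ncam1, 57 of Nfasc, 30 of Cadm2 and 29 of Ncam2, none of Alcam, and 178960 CPM of oligodendrocyte markers.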

How the results depend on the processing

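Counts of members called were within 1.5 times their value under each alternative run. They left Alcam out for AC against CA3 and included it in both CA1 comparisons. For CA1 against CA3 the value was thus 9 of 10 members, not the 8 of 9 without Alcam. Without Alcam, that count fell by more than 1.5 times on summed CPM. The split between directions also moved, on summed CPM to 3 and 3 for CA1 against CA3 and 4 and 3 for CA1 against AC. The counts were 5 to 9 between AC and CA3, 6 to 10 between CA1 and CA3 and 5 to 9 between CA1 and AC. Alcam was lower in AC than in CA3 under each alternative run, at -6.39 with a pseudocount of 10, -6.63 with all labelled cells, -6.95 with the filter of the publication and -7.18 after thinning, -8.85 as a log2 ratio of summed CPM + 1, and from -10.0 to -9.46 with single cells left out. Directions of called differences turned for Ncam2 (AC minus CA3) with all labelled cells (-0.40) and with the filter of the publication (-0.21), and for Cadm3 (CA1 minus AC) with all labelled cells (-0.074). On summed CPM they turned for Chl1 (0.45) and Nrcam (0.60) in AC minus CA3 and for Nfasc in CA1 minus CA3 (-0.079) and CA1 minus AC (-2.22). With single cells left out, CA1 minus CA3 ran from -1.03 to 4.52 for Cadm2 and from -1.23 to 3.19 for Ncam2, and CA1 minus AC from -0.65 to 4.42 for L1cam and from -1.81 to 2.42 for Cadm3. Of differences under 1, Nfasc (AC minus CA3) was at 2.14 on summed CPM, -1.15 with all labelled cells and -1.58 with the filter of the publication, Cadm3 (AC minus CA3) at 1.26 with all labelled cells and 0.45 with the filter of the publication, and Nrcam (CA1 minus AC) at 0.62 with all labelled cells, among others that turned. The causes of these turns were not tested, beyond the few cells that enter. No paired analysis was possible because replicate numbers follow accession order and no test was run. One mouse may have given several cells, 3 cells stand for CA1, and N1 had the lowest depth.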
